A study of Mus musculus with 6 samples.

Results

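WNT ligands, their receptors and the proteins that modulate them were examined in embryonic mouse hearts with and without the RNA-binding proteins RBPMS and RBPMS2 in cardiomyocytes. The members were the protein-coding genes of the deposited table whose symbols belong to the Wnt, Fzd, Sfrp, Dkk, Rspo, Tcf7, Lgr4 to Lgr6, Ror, Nkd and Axin genes, together with Lrp5, Lrp6, Lef1, Znrf3 and Rnf43. They came to 58 of 45706 genes in the table, and 43 of them had a mean value of at least 10 over the 6 hearts and were tested.

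Poly(A) RNA was sequenced from 3 control hearts of genotype RBPMS flox/flox RBPMS2 flox/flox (loxP-flanked alleles) and from 3 double knockout hearts with the same alleles that were positive for aMyHC Cre, a recombinase under the cardiomyocyte promoter of alpha-myosin heavy chain. All 6 hearts were of strain C57BL6/J and are described by the submitters as embryonic littermate controls and knockouts. The embryonic day and litter are not given in the sources used here. Cre is named in every knockout and in no control, so the transgene and the deletion cannot be told apart, and the deletion is directed to cardiomyocytes, not to the other cells of the heart. Nothing in the labels says whether the hearts of a group came from separate litters, so p-values measure the spread between these hearts only.

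The values are read numbers that had been divided by a factor per heart and rounded, and are called normalized read numbers below. Their totals were 17861435 to 18439201 per heart, and the estimated depth before that division was 12960709 to 25837261 reads. Rbpms was at 3868 to 7656 in the controls and 852 to 1134 in the knockouts, and Rbpms2 at 1362 to 1998 and 879 to 1003, so neither overlapped between the groups. All 13 cardiomyocyte markers were present, with a summed value of 1212129 to 1237309 in the controls and 968939 to 1076406 in the knockouts. In value, the largest falls were in Myh6, at 86437 to 106187 against 31568 to 39554, and Actc1, at 273411 to 288236 against 192214 to 236077. The median log2 change of the 13 was -0.16, and Tnni3 and Myl3 were at 0.04 each. Summed markers of several other cell types were higher in the knockouts: the sums for 12 fibroblast markers were 107700 to 123144 against 141619 to 177955, for 14 endothelial markers 28732 to 30689 against 33665 to 38767, for 12 epicardial markers 4865 to 5266 against 6023 to 6808, and for 12 leukocyte markers 1910 to 2137 against 2756 to 3827. Their median log2 changes were 0.35, 0.24, 0.36 and 0.86 in that order, and Tcf21 is in both the fibroblast and the epicardial list. Single log2 changes ran from -0.12 (Robo4) to 0.95 (Npr3) in endothelium and from 0.02 (Tbx18) to 1.38 (Krt8) in epicardium. The sums for 10 smooth muscle and pericyte markers were 45923 to 51417 against 32481 to 33872, which was set by Acta2, at 24225 to 29957 against 6450 to 9040. Without Acta2 the other 9 summed to 20085 to 21698 against 23959 to 26031, and the median log2 change of all 10 was 0.22. For 8 erythroid markers the sums were 37997 to 66249 against 30656 to 37851. Of 8 neural crest and Schwann cell markers the sums were 1239 to 1559 against 1893 to 2025. Single markers passed the test (adjusted p under 0.05) as follows: 0 higher and 3 lower of 13 in cardiomyocytes, 6 and 0 of 12 in fibroblasts, 6 and 0 of 14 in endothelium, 5 and 0 of 12 in epicardium, 9 and 0 of 12 in leukocytes, 1 and 2 of 10 in smooth muscle, 0 and 0 of 8 in erythroid cells and 1 and 0 of the 4 tested in neural crest. No marker of these lists was at 0 in every heart. These shifts run alongside every result below, and their part in each was not tested. In whole hearts, a change in the number of cells of a type and a change in RNA per cell cannot be told apart. Sex was assigned from the transcript Xist alone, which put 2 of 3 controls and 1 of 3 knockouts as female.

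WNT proteins are secreted, lipid-modified signals that bind Frizzled receptors. With the co-receptors LRP5 or LRP6 they stop the destruction of beta-catenin, which then acts with TCF/LEF factors on target genes, while other WNT proteins act through ROR receptors or planar cell polarity without beta-catenin. R-spondins bind LGR receptors and keep the ubiquitin ligases ZNRF3 and RNF43 from removing Frizzled receptors, and SFRP and DKK proteins block WNT outside the cell. In the developing heart the pathway is known for its part in progenitor growth, valve formation, the outflow tract and signals between epicardium and myocardium.

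In the knockout hearts 5 of the 43 tested members were higher and 3 were lower at an adjusted p under 0.05 (limma, Benjamini-Hochberg over 15556 genes). The R-spondin gene Rspo2, the antagonist gene Sfrp2, the ligand genes Wnt2 and Wnt11 and the receptor gene Fzd5 rose. The antagonist gene Sfrp5, the receptor gene Ror1 and the ubiquitin ligase gene Znrf3 fell. Over all genes tested 17.2% passed, 8.61% higher and 8.56% lower, and among the members the share was 18.6%, so the number of members called was near the background. The median log2 change of the tested members was -0.02, against 0.00 over all genes tested. An unadjusted p under 0.05 was reached by 14 members, against 31.6% of all genes tested. The control and knockout values did not overlap in 11 of the 43 members, or 25.6%, against 35.4% of all genes tested. The count of 5 higher became 3 without control replicate 2, knockout replicate 2 or knockout replicate 3. The count of 3 lower became 1 without control replicate 1, control replicate 2 or knockout replicate 2. With no filter on low values the counts were 3 and 1, and with embryo sex as a term they were 6 and 2, with Dkk3 and Fzd7 gained and Wnt11 and Znrf3 lost. Calls over all genes changed in these fits too, from 1339 higher and 1331 lower in the main fit. They were 1094 and 1225 without control replicate 1, and 955 and 924 without control replicate 2. Without knockout replicate 2 they were 619 and 700, and without knockout replicate 3 they were 874 and 955. With no filter they were 846 and 909 of 26986 genes, and with sex as a term 1109 and 981. In all 8 called members the groups did not overlap. The 35 members that did not pass had log2 changes from -0.51 to 0.50, and 21 of them lay within 0.25 of 0.

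The levels of the members were first compared with each other, as value per kilobase of exon and averaged over the 6 hearts. The antagonists Sfrp2, at 461, and Sfrp1, at 441, were the highest of the 58 members on this scale. The place of Sfrp2 came from the knockouts, at 629: in the controls it was at 293, below Sfrp1 at 456, Lgr4 at 328 and Fzd2 at 303. Over all hearts they were followed by Lgr4, the main R-spondin receptor gene of these hearts, at 316, and by Dkk3, at 310. Among the Frizzled genes Fzd2, at 289, and Fzd1, at 256, made up 33.1% and 29.3% of the summed level of the 10 receptors. The ligands were much lower: Wnt5b, at 52.4, and Wnt5a, at 48.2, were the most abundant of 19 Wnt genes, with 24.8% and 22.8% of their summed level. A few genes held most of a class: Lgr4 held 92.7% of the LGR level, Dkk3 97.1% of the DKK level, Tcf7l1 60.9% of the TCF/LEF level and Axin1 63.2% of the level of the intracellular inhibitors. The lengths are those of all annotated exons, and the isoforms used in the hearts may be shorter.

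**Figure D1:**
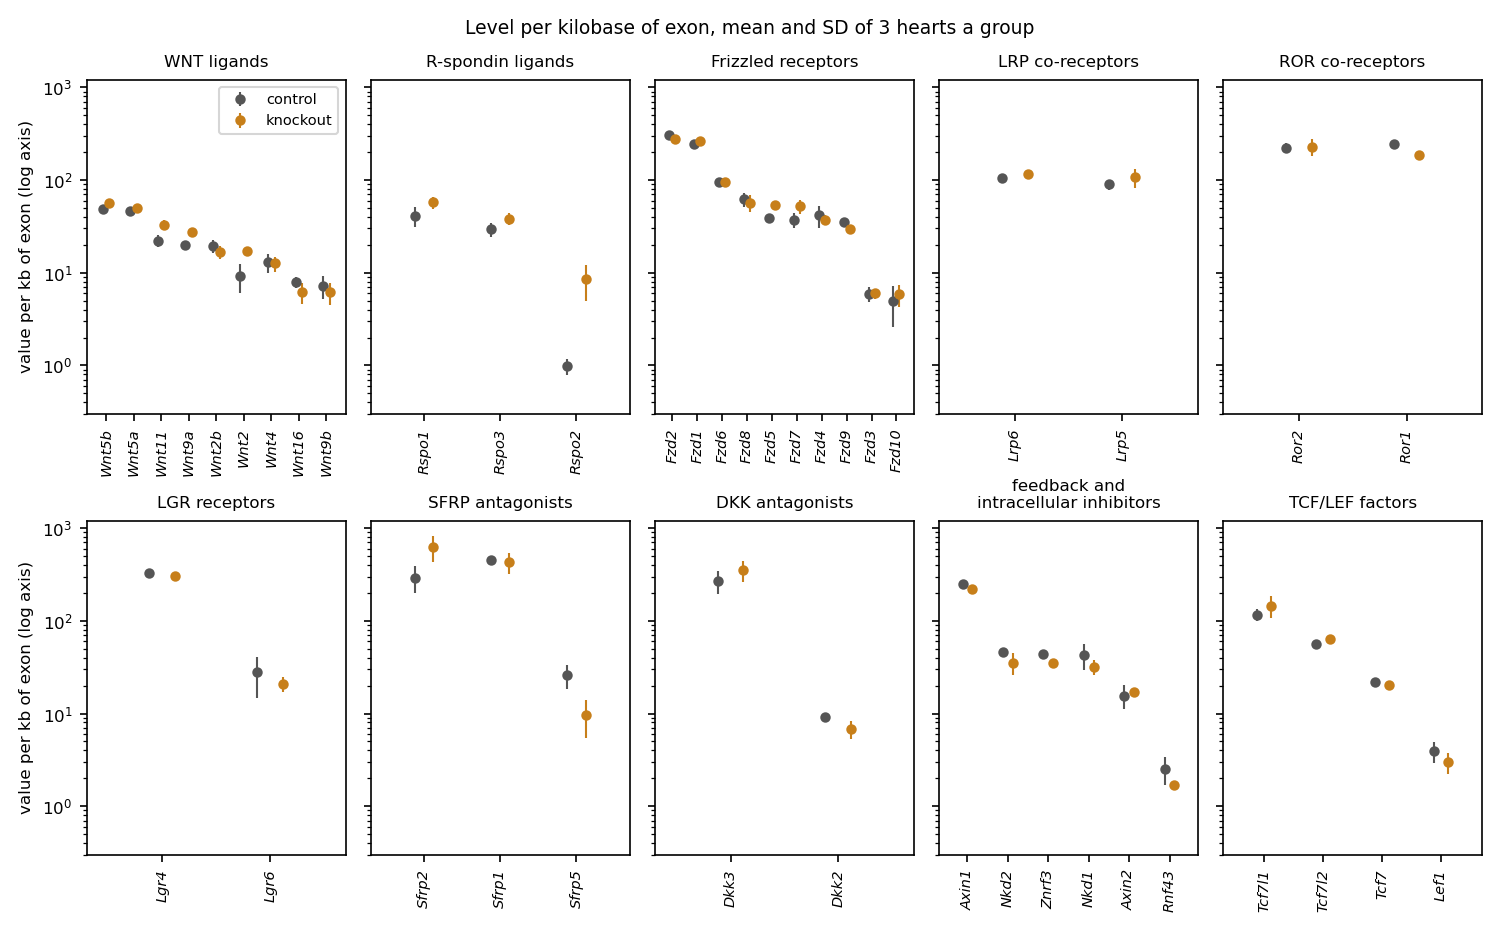
Level of each tested member as value per kilobase of exon (log axis), by role, with points for the mean and bars for the SD of 3 hearts in each group. Sfrp1, Sfrp2, Dkk3, Lgr4, Fzd1 and Fzd2 lie well above the ligands, while Sfrp5 and most Frizzled genes lie among or below the higher ligands, and Rspo2 shows the widest gap between the groups, from 0.978 in controls to 8.61 in knockouts.

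Of the 58 members, 15 had a mean under 10 and were not tested. Wnt1, Wnt3a, Wnt8b, Wnt10a, Rspo4 and Dkk4 were listed at 0 in every heart. All 37 mitochondrial genes, which every cell uses, are listed at 0 too, so a 0 in this table can also mean that a gene was not counted. The other 9, Wnt3, Wnt6, Wnt7a, Wnt7b, Wnt8a, Wnt10b, Lgr5, Sfrp4 and Dkk1, reached at most 9 in any heart. Just above the limit stood Rnf43, with a mean of 13.8, and just below it Lgr5, with 5.17. Several gene pairs of the list are neighbours on a chromosome in the mouse annotation (mm10), and their members were often unequal. On chromosome 11, Wnt9a, at 58 to 99, lies 16175 bases from Wnt3a, which was listed at 0, and Wnt9b, at 19 to 41, lies 24328 bases from Wnt3, which was listed at 0 in 5 hearts and at 1 in the other. In the remaining pairs, Wnt6 with Wnt10a on chromosome 1 and Wnt10b with Wnt1 on chromosome 15, no gene exceeded 6.

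The ligands were taken first. Of 9 tested Wnt genes, 2 rose, 0 fell and 7 did not pass, with a median log2 change of 0.09. The 2 that rose, Wnt11 and Wnt2, held 13% and 6.18% of the summed ligand level. That sum, over the 19 genes per kilobase, was 191, 181 and 214 in controls against 229, 229 and 224 in knockouts, with no overlap. The sums of the R-spondins and of the intracellular inhibitors, given below, did not overlap either, while those of all other roles did. Among single genes the groups did not overlap in 35.4% of all genes tested.

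Wnt11 (ENSMUSG00000015957, mm10 chromosome 7, 98835112 to 98855195, plus strand) encodes a ligand best known for signalling without beta-catenin and for its part in outflow tract development. Its values were 84, 84 and 107 for control replicates 1 to 3, against 123, 131 and 154 for knockout replicates 1 to 3. Every knockout was above every control. The means were 91.7 ± 13.3 and 136 ± 16.1 (SD, n = 3 each), a log2 change of 0.57 (SE 0.15, limma adjusted p = 0.0323). The call was lost without control replicate 1, control replicate 2, knockout replicate 2 or knockout replicate 3, with limma adjusted p = 0.0821, 0.1, 0.0827 and 0.11. It was also lost with embryo sex as a term (limma adjusted p = 0.0513) and with no filter on low values (0.0652).

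Wnt2 (ENSMUSG00000010797, chromosome 6, 17988940 to 18030585, minus strand), a ligand of the beta-catenin branch made in mesenchyme and endothelium, was at 28, 14 and 20 in controls against 41, 38 and 36 in knockouts. The knockouts were close together and above all controls, though the counts were low, an estimated 27, 16 and 14 reads against 59, 31 and 38. The log2 change was 0.91 (SE 0.27, limma adjusted p = 0.0442). It passed in 1 of the 6 fits that left out a heart, that without control replicate 1 (limma adjusted p = 0.0237), and the others gave adjusted p from 0.0869 without knockout replicate 3 to 0.126 without control replicate 2, with 0.1 without control replicate 3, 0.105 without knockout replicate 1 and 0.115 without knockout replicate 2. It was also lost with no filter (limma adjusted p = 0.102) and with quantile normalization (0.0637).

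The most abundant ligand transcripts did not pass. Wnt5a, a ligand that signals largely through ROR receptors, was at 375, 323 and 398 in controls against 424, 381 and 360 in knockouts, a log2 change of 0.09 (SE 0.11). Wnt5b, its close relative, was at 116, 127 and 144 and at 137, 154 and 156, a log2 change of 0.21 (SE 0.13). For both the groups overlapped. The annotated span of Wnt5b, introns included, overlaps that of Fbxl14 on the opposite strand, which was at 558 to 647. Whether their exons overlap was not examined, and the sources used here do not say whether counting used strand. Whether any reads were shared was not tested. Wnt9a, a ligand of the endocardial cushions, had values of 72, 58 and 68 and of 93, 99 and 81, with no overlap, but missed the threshold (log2 change 0.46, SE 0.16, limma adjusted p = 0.0784). The other 4 tested ligands, Wnt2b, Wnt4, Wnt9b and Wnt16, had log2 changes from -0.37 to -0.02.

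Promoters were searched for the TCF/LEF motifs CTTTGAT and CTTTGAA, on both strands, in the 250 bases before each start site. RefSeq promoters of build GRCm38.p6 were held for 30 of the 43 tested members, 39 start sites in all. A motif was found at 2 of the 39, or 5.13%, against 7.48% of 32851 promoters, and those 2 belonged to Wnt11 and Wnt5b. Wnt11 has 2 start sites in the table and Wnt5b 3, and in each gene 1 of them had a match. The promoter of the matching Wnt11 start is shown because Wnt11 was the called member with a match (the other, chr7:98838595-98838844, had none), and its motif, CTTTGAT on the reverse strand, lies at position -51 from the start and is in capitals. The promoters of Sfrp2 and Sfrp5, a pair of related antagonist genes called in opposite directions, are shown beside it and held neither motif. A match is only a description of the letters in this window.
Wnt11, chr7:98834862-98835111, plus strand: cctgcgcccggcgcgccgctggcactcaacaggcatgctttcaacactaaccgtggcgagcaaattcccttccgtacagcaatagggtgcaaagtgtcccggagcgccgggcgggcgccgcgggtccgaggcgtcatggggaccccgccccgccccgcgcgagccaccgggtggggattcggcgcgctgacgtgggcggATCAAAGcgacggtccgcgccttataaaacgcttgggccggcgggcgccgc
Sfrp2, chr3:83766071-83766320, plus strand: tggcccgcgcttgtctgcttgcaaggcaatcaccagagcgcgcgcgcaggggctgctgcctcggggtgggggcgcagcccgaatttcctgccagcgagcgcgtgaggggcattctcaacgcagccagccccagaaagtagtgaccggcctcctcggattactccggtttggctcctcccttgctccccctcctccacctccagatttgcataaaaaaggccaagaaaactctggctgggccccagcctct
Sfrp5, chr19:42202253-42202502, minus strand: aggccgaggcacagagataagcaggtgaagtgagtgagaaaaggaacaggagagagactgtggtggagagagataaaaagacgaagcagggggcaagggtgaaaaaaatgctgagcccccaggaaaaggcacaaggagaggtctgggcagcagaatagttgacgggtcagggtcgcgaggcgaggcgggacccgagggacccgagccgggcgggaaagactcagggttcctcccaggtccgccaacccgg

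R-spondins are secreted proteins that raise the response to WNT. Of 3 tested genes 1 rose, 0 fell and 2 did not pass, and the 1 that rose, Rspo2, had the largest log2 change of the 43 tested members. Rspo2 (ENSMUSG00000051920, chromosome 15, 43020794 to 43170826, minus strand) had values of 5, 6 and 4 in controls against 24, 61 and 47 in knockouts. The lowest knockout was above the highest control by a wide margin, and the estimated reads were 5, 7 and 3 against 35, 50 and 50. The means were 5 ± 1 and 44 ± 18.7 (SD, n = 3 each), an 8.8-fold ratio of means and a log2 change of 2.82 on the log2(value + 1) scale (SE 0.37, limma adjusted p = 0.00129). Rspo2 was the 1 tested member with a group mean under 10 and entered the test through its knockout values, so its passing the filter already favoured a difference. With no filter it had a limma adjusted p of 0.00656. It passed without each heart in turn, with log2 changes of 2.54 to 3.20. With a pseudocount of 10, which damps low values, the log2 change was 1.79. Rspo2 still made up a small part of the R-spondin level: its 8.61 ± 3.65 per kilobase in the knockouts compares with 57.3 ± 8.01 for Rspo1 and 38.4 ± 5.55 for Rspo3 (SD, n = 3).

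The more abundant R-spondin genes did not pass. Rspo1, known in the heart from the epicardium, was at 68, 68 and 101 in controls against 96, 127 and 110 in knockouts, a log2 change of 0.50 (SE 0.19, limma adjusted p = 0.101). Rspo3, known for its part in coronary vessel growth, was at 107, 76 and 90 and at 116, 137 and 103, a log2 change of 0.38 (SE 0.17, limma adjusted p = 0.156). In both genes the lowest knockout was below the highest control. Rspo1 passed only without control replicate 3 (log2 change 0.69, limma adjusted p = 0.0411). That was its highest control, so leaving it out favoured a difference. Summed over the 4 R-spondin genes, the level per kilobase was 70.7, 60.9 and 82 in controls against 91.8, 122 and 99.3 in knockouts, with no overlap. The receptors for these proteins did not pass: Lgr4 was at 2032, 2038 and 1723 in controls against 1825, 1803 and 1718 in knockouts, a log2 change of -0.11 (SE 0.08). Lgr6 was at 295, 135 and 142 and at 138, 171 and 120, and its log2 change of -0.33 (SE 0.27) rested on control replicate 1, without which it was 0.03.

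**Figure D2:**
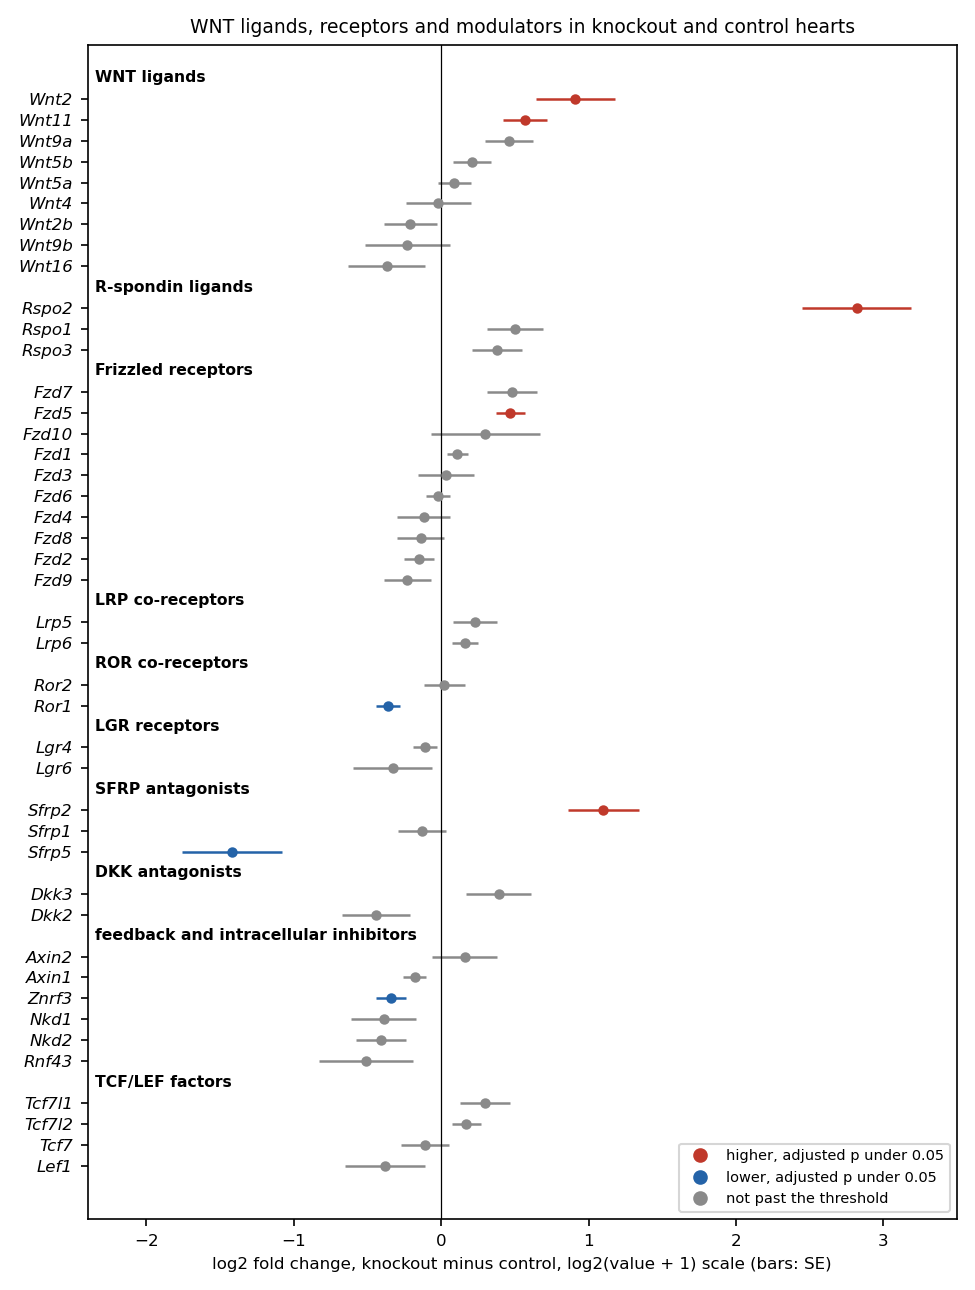
Log2 fold change of the 43 tested members by role, knockout minus control, on the log2(value + 1) scale, with bars for the SE. The 5 members that rose are red, the 3 that fell are blue, and the others are grey. Rspo2, at 2.82, and Sfrp5, at -1.42, mark the ends of the range.

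Among the receptors, 1 of 10 Frizzled genes rose, 0 fell and 9 did not pass. Fzd5 (ENSMUSG00000045005, chromosome 1, 64730558 to 64737751, minus strand) encodes a receptor of the beta-catenin branch. It was at 262, 285 and 252 in controls against 340, 362 and 406 in knockouts. The groups were well apart, with means of 266 ± 16.9 and 369 ± 33.6 (SD, n = 3 each), a log2 change of 0.47 (SE 0.10, limma adjusted p = 0.0129). It passed in all 15 alternatives, with limma adjusted p from 0.00964 to 0.0496. Fzd5 held 5.26% of the Frizzled level per kilobase. The abundant receptors Fzd2 and Fzd1 did not pass. Fzd2 was at 1000, 1166 and 1168 in controls against 954, 928 and 1134 in knockouts, a log2 change of -0.15 (SE 0.10). Fzd1 was at 987, 1043 and 1077 and at 1084, 1065 and 1199, a log2 change of 0.11 (SE 0.07). Their groups overlapped, and the Frizzled level summed over the 10 genes was 871 ± 26.6 per kilobase in the controls and 876 ± 59.8 in the knockouts (SD, n = 3 each). Of the other 7, Fzd7 came closest, at 197, 136 and 176 and at 194, 277 and 238 (log2 change 0.48, SE 0.17, limma adjusted p = 0.0805). It passed without knockout replicate 1, whose value was the lowest of the knockouts (log2 change 0.61, limma adjusted p = 0.0387), and with sex as a term (log2 change 0.61, limma adjusted p = 0.0161). Leaving out that heart favoured a difference, and Fzd7 passed in no other fit that left out a heart.

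The co-receptors LRP5 and LRP6, which carry the beta-catenin signal, did not pass. Lrp6 was at 1603, 1416 and 1279 in controls against 1584, 1686 and 1517 in knockouts, a log2 change of 0.16 (SE 0.09). Lrp5 was at 809, 819 and 997 and at 786, 1099 and 1245, a log2 change of 0.23 (SE 0.15, limma adjusted p = 0.329). Knockout replicate 1 held the lowest Lrp5 value of all hearts, and without it the log2 change was 0.43 (limma adjusted p = 0.0297). Lrp5 passed in that fit alone, and leaving out that heart favoured a difference.

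The receptor kinases ROR1 and ROR2, which carry WNT5A signals, had like levels per kilobase, 215 and 226, but only Ror1 passed. Ror1 (ENSMUSG00000035305, chromosome 4, 100095791 to 100444765, plus strand) had values of 1514, 1392 and 1271 in controls against 1114, 1117 and 1022 in knockouts. All knockouts were below all controls, with means of 1392 ± 122 and 1084 ± 54 (SD, n = 3 each), and on a log2 scale it fell by 0.36 (SE 0.08, limma adjusted p = 0.0144). It passed in all 15 alternatives, with limma adjusted p from 0.00361 to 0.0497. Ror2 was at 833, 1064 and 936 and at 789, 929 and 1190, a log2 change of 0.02 (SE 0.14), and its groups overlapped throughout. The difference between the changes of Ror1 and Ror2 was not tested.

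The secreted antagonists held the members that moved in opposite directions. SFRP proteins carry a domain like that of Frizzled receptors and bind WNT outside the cell. Of 3 tested SFRP genes 1 rose, 1 fell and 1 did not pass. Sfrp2 (ENSMUSG00000027996, chromosome 3, 83766321 to 83774316, plus strand), whose promoter is printed above, was at 586, 456 and 848 in controls against 937, 1779 and 1347 in knockouts. The spread was wide in both groups, but the lowest knockout was above the highest control. The means were 630 ± 200 and 1354 ± 421 (SD, n = 3 each), a log2 change of 1.10 (SE 0.24, limma adjusted p = 0.0131). Among females the controls were at 586 and 848 and the knockout at 1779, and among males the control was at 456 and the knockouts at 937 and 1347. With sex as a term the log2 change was 1.32 (SE 0.17, limma adjusted p = 0.0024). In that fit 0 of the 43 members passed for sex itself (7 had an unadjusted p under 0.05, limma), against 0.0707% of all genes tested (limma). At an unadjusted p under 0.05 the share was 16.3% of members and 4.3% of all genes. Sfrp2 passed without each heart in turn, with log2 changes of 0.88 to 1.34 and limma adjusted p up to 0.0495. Summed fibroblast markers, given above, were also higher in the knockouts, and their part in the Sfrp2 change was not tested.

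Sfrp5 (ENSMUSG00000018822, chromosome 19, 42197971 to 42202252, minus strand), an antagonist gene known from the inflow region of the early heart, was at 62, 52 and 34 in controls against 11, 17 and 27 in knockouts. Here the highest knockout was below the lowest control. The means were 49.3 ± 14.2 and 18.3 ± 8.08 (SD, n = 3 each), and on a log2 scale it fell by 1.42 (SE 0.34, limma adjusted p = 0.0185). The estimated reads were 61, 61 and 24 against 16, 14 and 29. The call was lost without control replicate 1, control replicate 2 or knockout replicate 2, with limma adjusted p = 0.0649, 0.0623 and 0.0549, and with no filter (0.0555). Sfrp1 did not pass: it was at 2109, 1757 and 2117 and at 1347, 2252 and 1992, a log2 change of -0.13 (SE 0.16) that became 0.09 without knockout replicate 1. Because Sfrp1 and Sfrp2 were so abundant, the SFRP level per kilobase of 775 ± 128 in the controls and 1066 ± 302 in the knockouts (SD, n = 3 each) was almost wholly theirs, and Sfrp5 held 1.93% of it. These summed levels overlapped.

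DKK proteins block the LRP co-receptors, apart from the divergent DKK3. Neither tested gene passed. Dkk3 was at 985, 618 and 1123 in controls against 1090, 1504 and 931 in knockouts, a log2 change of 0.39 (SE 0.22, limma adjusted p = 0.258). The female controls were at 985 and 1123 and the male at 618, the female knockout was at 1504 and the males at 1090 and 931, and with sex as a term the log2 change was 0.61 (SE 0.10, limma adjusted p = 0.00548). Dkk2 was at 33, 32 and 38 and at 31, 25 and 20, with all knockouts below the controls, but its log2 change of -0.44 (SE 0.23, limma adjusted p = 0.229) did not pass.

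**Figure D3:**
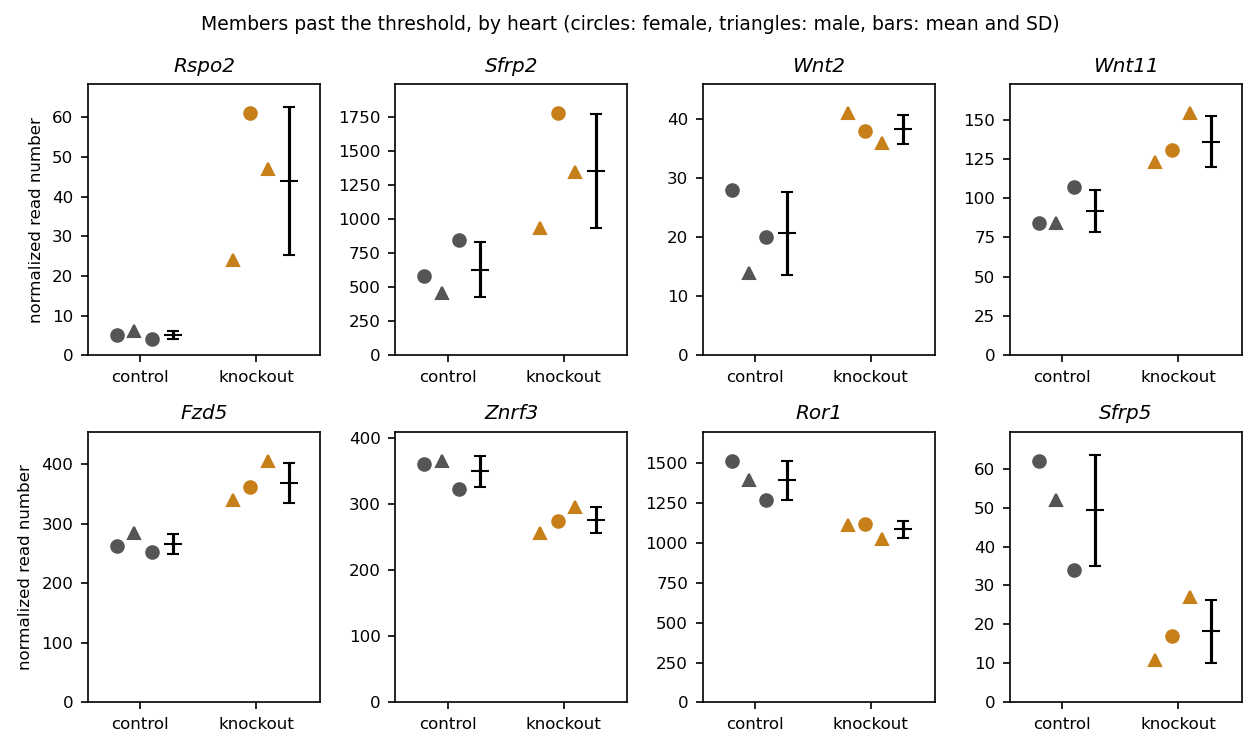
Normalized read number of the 8 called members in each heart, with circles for female and triangles for male hearts and bars for the mean and SD of 3 hearts. In every panel the groups do not overlap, and Rspo2 rises from 4 to 6 in controls to 24 to 61 in knockouts.

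Inside the cell, AXIN proteins build the complex that destroys beta-catenin, ZNRF3 and RNF43 remove Frizzled receptors, and NKD proteins bind Dishevelled. Axin2, Znrf3, Rnf43 and Nkd1 are also known as genes that beta-catenin itself turns on. Of these 6 genes, 1 fell, 0 rose and 5 did not pass, with a median log2 change of -0.36. Znrf3 (ENSMUSG00000041961, chromosome 11, 5276324 to 5444847, minus strand) had values of 361, 366 and 323 in controls against 256, 275 and 296 in knockouts. The groups did not overlap, and it fell by 0.34 (SE 0.10, limma adjusted p = 0.0416). This call passed in 5 of 15 alternatives, the fewest of the 8 called members: it was lost without each of the 6 hearts, with limma adjusted p from 0.0507 without knockout replicate 3 to 0.13 without control replicate 2, and with values scaled to equal totals (limma adjusted p = 0.0616), with sex as a term (0.0639), with no filter (0.0691) and with limma-voom (0.0516).

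Axin1 was at 922, 951 and 969 in controls against 815, 787 and 908 in knockouts, all below the controls, with a log2 change of -0.18 (SE 0.08, limma adjusted p = 0.136). Nkd2 was at 225, 210 and 228 and at 221, 142 and 146, a log2 change of -0.41 (SE 0.17, limma adjusted p = 0.12). It passed only without knockout replicate 1 (log2 change -0.61, limma adjusted p = 0.0104). That was the heart that overlapped the controls, so leaving it out favoured a difference. Nkd1, at 114 to 167 in the knockouts against 139 to 263, and Rnf43, at 10 to 12 against 11 to 22, did not pass. Axin2, the target most used as a readout of beta-catenin, was at 100, 57 and 100 in controls against 87, 102 and 90 in knockouts. Its log2 change was 0.16 (SE 0.22, limma adjusted p = 0.666), and the low control replicate 2 set its sign: the change was -0.11 without that heart. Control replicate 2 was the only male control, and with sex as a term the log2 change was 0.33 (SE 0.18, limma adjusted p = 0.258). The summed level of the 6 genes per kilobase was 396, 381 and 420 in controls against 333, 327 and 358 in knockouts, with no overlap, and Axin1 made up most of it.

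TCF/LEF factors bind DNA with beta-catenin at target genes, and TCF7L1 acts mainly as a repressor. None of the 4 genes passed, and 0 had an unadjusted p under 0.05 (limma). Tcf7l2 was at 437, 507 and 528 in controls against 515, 532 and 608 in knockouts, a log2 change of 0.17 (SE 0.10). Tcf7l1 was at 383, 466 and 519 and at 453, 520 and 738, a log2 change of 0.30 (SE 0.17, limma adjusted p = 0.26). In both genes the groups overlapped and knockout replicate 3 was the highest heart. Tcf7, at 51 to 61 over all hearts, and Lef1, at 22 to 44, were lower in level and gave log2 changes of -0.11 (SE 0.16) and -0.38 (SE 0.27).

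Other genes of the pathway were set beside the members, from 6 lists whose counts are read against the 17.2% of all genes that passed. Calls over all genes also changed in the alternatives, as given above for some. They were 880 higher and 789 lower without control replicate 3, and 1237 and 1134 without knockout replicate 1. With equal totals they were 1569 and 1091, and with limma-voom 1451 and 1044. The lists were chosen with earlier results of these data known, so their counts are a description only. Of the other WNT antagonists, secreted or at the cell surface, 5 of 6 tested genes rose and 0 fell, with a median log2 change of 0.46. Sost, whose product sclerostin binds LRP5 and LRP6, was at 48, 27 and 81 in controls against 201, 305 and 295 in knockouts, a log2 change of 2.45 (SE 0.33, limma adjusted p = 0.00151), with every knockout far above every control. Igfbp4, an IGF-binding protein that also blocks WNT, rose by 0.52 (SE 0.09), and Kremen1, a DKK receptor, by 0.36 (SE 0.09). Frzb, an SFRP relative, rose by 0.43 (SE 0.12), and the fifth was Apcdd1, an inhibitor at the cell surface. Wif1 gave -0.09 (SE 0.13). Sost and Igfbp4 passed without each heart in turn. The count of 5 became 3 without control replicate 1, 2 or 3, and 2 without knockout replicate 2 or 3, since Frzb, Apcdd1 and Kremen1 each lost the call in some of these fits. With no filter it was 3.

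Of 7 genes of WNT secretion and ligand modification 2 rose and 0 fell, with a median of 0.38. Gpc6, a glypican, rose by 0.64 (SE 0.11), and Trabd2b, a protease that inactivates WNT, by 0.54 (SE 0.14). Wls, the carrier that exports WNT, was at 2090 to 2184 in the controls and 2250 to 2648 in the knockouts, a log2 change of 0.15 (SE 0.08) that did not pass. The count of 2 became 1 without control replicate 2 or 3 or knockout replicate 2 or 3, in each case through Trabd2b, and 4 without knockout replicate 1. With no filter it was 1.

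The machinery that holds and relays beta-catenin was close to the middle of all genes. Of 22 genes of the destruction complex and its surroundings 2 rose and 0 fell, with a median of -0.01. They were Tnks, by 0.44 (SE 0.12), and Tnks2, by 0.28 (SE 0.08), the tankyrases that mark AXIN for removal, and the count was 0 without control replicate 2 or 3 or knockout replicate 1 or 2, with embryo sex as a term, and with no filter. Beta-catenin itself, Ctnnb1, was at 16542 to 17816 in the controls and 15035 to 15453 in the knockouts, a log2 change of -0.16 (SE 0.06, limma adjusted p = 0.11). Of 20 nuclear cofactors 2 rose and 0 fell, with a median of -0.02: Tle2, a Groucho corepressor, by 0.55 (SE 0.13), and Tbl1xr1 by 0.33 (SE 0.07). That count was 0 without knockout replicate 2, and 1 without knockout replicate 3 or with no filter.

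Of 15 further genes known as beta-catenin targets 3 rose and 0 fell, with a median of 0.24. They were Vcan, a matrix proteoglycan, by 0.94 (SE 0.09), Cd44, a hyaluronan receptor, by 0.88 (SE 0.10), and Id2, by 0.87 (SE 0.10), and each passed without every heart in turn. The count was 5 without knockout replicate 1 or with equal totals, 6 with the replicate block, and 4 with quantile normalization or limma-voom. Vcan, Cd44 and Id2 are also known as targets of other pathways, and fibroblast and leukocyte markers were higher in the same hearts. The cause of these 3 changes was not tested. Ccnd1 and Myc, the targets most often named, gave -0.10 (SE 0.06) and -0.10 (SE 0.10). Of 27 genes of planar cell polarity and signalling without beta-catenin 2 rose and 4 fell, with a median of -0.03. Camk2d, a calcium-dependent kinase of cardiomyocytes, fell by 0.43 (SE 0.08), and Camk2a by 0.26 (SE 0.07). The polarity genes moved both ways: Vangl1 fell by 0.32 (SE 0.09, limma adjusted p = 0.0415) and Prickle1 by 0.27 (SE 0.08, limma adjusted p = 0.0382), while Prickle2 rose by 0.41 (SE 0.10). The calcium-responsive factor Nfatc1 rose by 0.38 (SE 0.09). Of these 6, Camk2d alone passed without each heart in turn. The count of 4 lower was 1 without control replicate 3 or knockout replicate 2, and 2 without control replicate 2 or knockout replicate 1. It was 1 with no filter and 2 with sex as a term, equal totals or limma-voom. The count of 2 higher was 0 without control replicate 2 or knockout replicate 2, and 1 without control replicate 3 or knockout replicate 3.

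**Figure D4:**
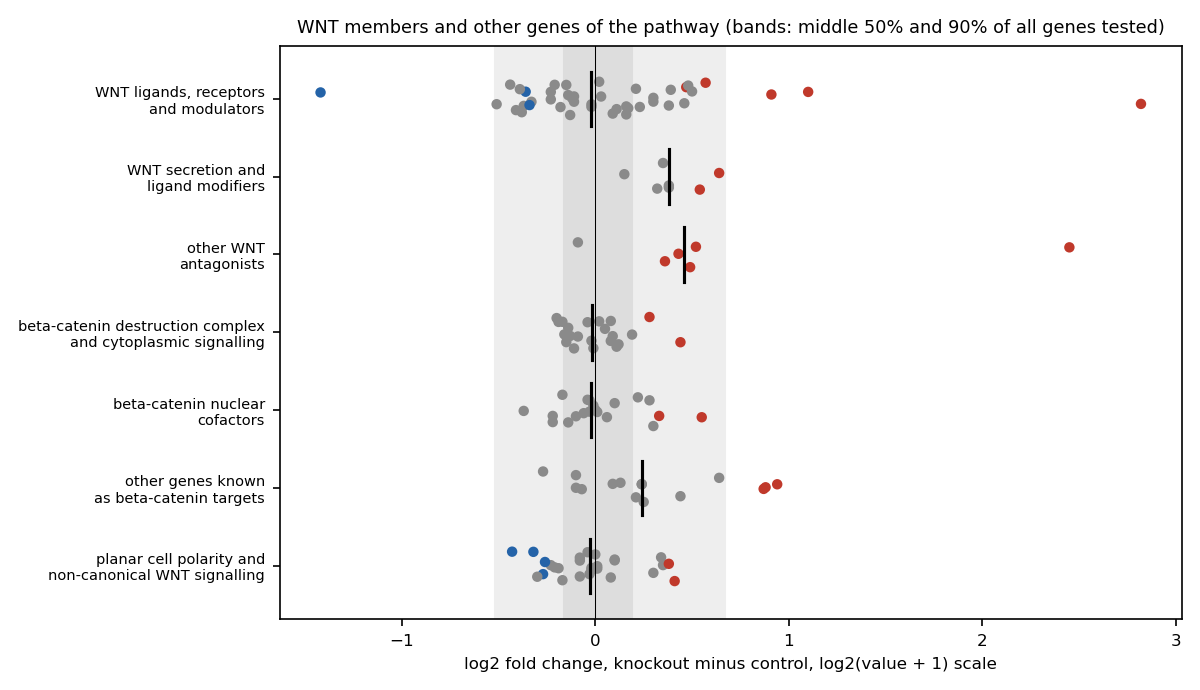
Log2 fold change of each tested gene (points, red higher and blue lower at an adjusted p under 0.05) for the WNT members and 6 further lists of the pathway, with a black line at each median and bands for the middle 50% and 90% of all genes tested. The median of the other WNT antagonists lies at 0.46 and that of the destruction complex at -0.01, beside 0.00 for all genes.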

How the data were processed

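Per the labels' protocols, stranded mRNA libraries were read as pairs on a NextSeq500. Per the submitters' processing notes, the tools were Trimmomatic, STAR 2.4.2a, featureCounts 1.5.0, DESeq and DESeq2, with build mm10; their roles and any use of strand are not given in the sources used here. The deposited values are a score: whole numbers that, judged from the values, the authors scaled by a divisor per heart and rounded. The value of 1 read was fitted to the values up to 150 (0.6921 to 1.4227), so low values are coarse. Limma 3.58.1 in R 4.3.3, with a variance trend, took log2(value + 1) of the 15556 genes whose mean reached 10, with group as the only term. The fit was tested on simulated data with known changes: 87.9% of 2-fold and 70% of 1.5-fold changes passed, with 9 false calls. The simulated spread was the same for every gene and was not taken from these hearts, so these rates may not hold here. Differences between replicates exceeded sampling noise in every pair. Coordinates and exon lengths came from GENCODE M21, which held all 58 members.

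Values in every heart are given for members past the threshold and, in each role, for up to 2 uncalled members with the highest mean. From each further list up to 4 called genes with the smallest p are named. Axin2, Fzd7, Wnt9a, Wls, Wif1, Apcdd1, Prickle1, Vangl1, Acta2, Myh6, Actc1, Tnni3, Myl3, Robo4, Npr3, Tbx18, Krt8, Tcf21, Ctnnb1, Ccnd1 and Myc were named after their values were seen. Members and lists were chosen with earlier results of these data known. Alternatives were other pseudocounts (0.1, 10), filters, scalings, limma-voom on estimated reads, a replicate block, sex as a term and leaving out each heart. Counts for the further lists under these were added after the data were seen. Tables were made with pandas 2.3.3 and numpy 2.4.6 in Python 3.11.15, and figures with matplotlib 3.10.9.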

Additional observations from a re-analysis of the deposited data

How the results depend on the processing

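Of the 8 called members, Fzd5, Ror1, Sfrp2 and Rspo2 kept their direction and their call under every alternative that could be run, 15 each and 14 for Rspo2, which the stricter filter (50 in each of 3 hearts) leaves out together with Wnt2 and Sfrp5. Rspo2 passed the filter on the mean through its knockout values, so its calls in the fits that use that filter already favoured a difference. The number of members higher, 5, was 3 with no filter on low values and 3 with the stricter one, and 3 to 6 without each heart in turn. The number lower, 3, was 1 with no filter and 1 to 3 without each heart. With no filter 26986 genes were tested, against 15556, and 846 were called higher and 909 lower, against 1339 and 1331. With the stricter filter the calls were 1204 and 1337 of 12662 genes. Scaling to equal totals moved the share of higher calls over all genes from 50.1% to 59%, and among members the split went from 5 and 3 to 5 and 2.

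With the replicate block 6 members were higher and 3 lower, with Tcf7l1 added (limma adjusted p = 0.0389). Calls over all genes rose as well, from 1339 higher and 1331 lower to 1787 and 1743. The labels share only numbers between groups, and the numbers were not taken as pairs. Deviations of hearts with the same number correlated at -0.04, -0.37 and 0.05 across genes. Those hearts were also of unlike sex, so these correlations cannot show whether they were paired.

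Reversals of sign occurred in members that did not pass. With equal totals and with limma-voom, Fzd6 was at 0.01 in both and Wnt4 at 0.01 and 0.07. With quantile normalization Fzd3 was at -0.05, and with sex as a term Fzd3 was at -0.07 and Ror2 at -0.03. Without each heart in turn, the log2 change ranged from -0.11 (without control replicate 2) to 0.29 for Axin2, -0.03 to 0.63 for Fzd10, -0.30 to 0.08 for Fzd4, -0.26 to 0.04 for Fzd8, -0.53 to 0.03 for Lgr6, -0.13 to 0.16 for Ror2, -0.28 to 0.09 for Sfrp1, -0.17 to 0.14 for Wnt4 and -0.46 to 0.01 for Wnt9b. For Fzd3 the range was -0.12 to 0.14. The cause of these changes was not tested. Among the called members, low read numbers limit the precision of Rspo2, Wnt2 and Sfrp5.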

Other observations

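Deviations from the group mean correlated more between hearts of the same sex than between those of the same number. Hearts of the same number were always of unlike sex, so sex and number cannot be told apart in this comparison. Deviations within a group sum to 0 for each gene, so the correlations below also depend on each other. As a description across 15556 genes, the male control replicate 2 correlated with the male knockout replicates 1 and 3 at 0.21 and 0.2 and with the female knockout replicate 2 at -0.37, and the female controls correlated with that knockout at 0.27 and 0.12. In a fit with sex and group, 11 of 15556 genes passed for sex, or 0.0707%, and 0 of the 43 members did (limma), while 7 members, or 16.3%, had an unadjusted p under 0.05, against 4.3% of all genes. The log2 differences of these 7, male minus female, did not pass and were as follows: Dkk3 -0.67 (SE 0.10, limma adjusted p = 0.0891), Sfrp2 -0.65 (SE 0.17, limma adjusted p = 0.868), Axin2 -0.50 (SE 0.18), Nkd1 -0.49 (SE 0.19), Fzd7 -0.41 (SE 0.13), Sfrp1 -0.36 (SE 0.14) and Rspo3 -0.34 (SE 0.15), the last 5 with a limma adjusted p of 0.999. With 1 male control and 1 female knockout, sex rests on few hearts here.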
